A study of Mus musculus with 9 samples.

Results

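Cytoplasmic RNA decay was followed through 10 genes in N2A cells, a mouse neuroblastoma line, after siRNA depletion of EXOSC3 or DDX1. The genes were taken by name: Dis3l, Dis3l2, Skiv2l, Ttc37, Wdr61, Hbs1l, Pelo, Xrn1, Dcp2 and Dcp1a. All 10 were found among the 24318 genes of both deposited FPKM tables (fragments scaled to transcript length and to the mapped fragments of the library), and all 10 passed the filter of a mean of at least 1 FPKM over the 6 libraries of a table. The cells received scramble siRNA (labelled WT), EXOSC3 siRNA (siEXOSC3) or DDX1 siRNA (siDDX1), with 3 libraries each and no other treatment in any group. EXOSC3 is a structural subunit of the RNA exosome, and DDX1 is a putative RNA helicase. The study asked whether EXOSC3 and DDX1 share functions in RNA metabolism. All libraries come from 1 established line, so the groups differ by the siRNA alone as far as the labels tell. The methods list more than one EXOSC3 siRNA, and which was used for these libraries, the identity of the DDX1 siRNA and the time after transfection are not given in the sources used here.

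In the cytoplasm, mRNA is degraded from both ends after its poly(A) tail has been shortened. From the 3′ end it is degraded by the exosome with its catalytic subunit DIS3L, which receives RNA from the SKI complex of the helicase SKIV2L, the scaffold TTC37 and WDR61, while DIS3L2 degrades uridylated RNA from the 3′ end without the exosome. From the 5′ end, DCP2 removes the cap with the help of DCP1A, and XRN1 digests the uncapped RNA. PELO and HBS1L free ribosomes that have stalled on mRNA, a step that is coupled to decay of that mRNA. EXOSC3 belongs to the exosome core of both the nucleus and the cytoplasm.

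The targeted transcripts were examined first. Exosc3 was at 15.5%, 17.4% and 13.6% of its scramble mean in siEXOSC3 replicates 1, 2 and 3, a log2 fold change of -2.53 (limma adjusted p = 1.11e-05). Ddx1 was at 22.4%, 22.9% and 27.8% of its scramble mean in siDDX1 replicates 1, 2 and 3, a log2 fold change of -2.01 (limma adjusted p = 9.53e-05). Across genes, siEXOSC3 replicate 2 had the highest correlation with the scramble libraries of its group (Pearson r from 0.985 to 0.986) and replicate 3 the lowest (0.966 to 0.9705), where genes are not independent replicates. In siDDX1, replicates 1 and 2 correlated at 0.9944 with each other, and replicate 3 at 0.9864 and 0.9898 with them. With the scramble libraries, siDDX1 replicate 3 was at 0.9876 to 0.9893, replicate 1 at 0.9825 to 0.9862 and replicate 2 at 0.9839 to 0.989. The part of these differences between libraries in the results was not tested. The methods give a target for the reads per sample, but the depth reached cannot be read from FPKM. The relative depth, read from the step of low FPKM values, lay between 0.83 and 1.2 times that of scramble replicate 1. Of 12 neuronal markers, 9 had a mean of at least 1 FPKM, and Nefl, Nefm and Th did not. Their summed level was 812 to 846 FPKM in scramble and 1054 to 1100 FPKM in siEXOSC3, and 806 to 836 FPKM in scramble and 813 to 918 FPKM in siDDX1. Of 12 markers of other cell types, Pecam1 alone had a mean of at least 1 FPKM, and 5 (siEXOSC3 table) or 3 (siDDX1 table) of them were listed at 0 in every library. Their summed level was 5.28 to 6.77 FPKM in scramble and 7.38 to 11.2 FPKM in siEXOSC3, without overlap, and 5.24 to 6.72 FPKM in scramble and 6.36 to 7.22 FPKM in siDDX1. Most of it was Pecam1, an endothelial marker, at 3.80 to 4.49 FPKM in scramble and 6.11 to 9.08 FPKM in siEXOSC3, and at 3.77 to 4.44 FPKM in scramble and 4.88 to 5.51 FPKM in siDDX1, without overlap in either table. Cdh5, also an endothelial marker of this list, was near 0 and did not rise. It was at 0.0124 to 0.0403 FPKM in scramble and 0 to 0.0378 FPKM in siEXOSC3. In the siDDX1 table it was at 0.0123 to 0.0399 FPKM in scramble and 0 to 0.0355 FPKM in siDDX1. The part of these marker levels in the results was not tested. In bulk RNA, fewer cells of a type and less RNA per cell cannot be told apart.

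In scramble, the 10 transcripts spanned a 9.51-fold range of FPKM, a scale that is per transcript length and allows levels of different genes to be set side by side. The ribosome rescue factors and WDR61 stood at the top. Hbs1l had the highest level with 57.8 ± 2.95 FPKM, followed by Wdr61 with 46.3 ± 1.46 FPKM, Pelo with 35.3 ± 4.16 FPKM and Ttc37 with 23.4 ± 0.840 FPKM (SD, n = 3, siEXOSC3 table). Xrn1 was at 14.01 ± 2.03 FPKM. Dis3l with 11.4 ± 0.270 FPKM, Dcp2 with 10.95 ± 0.709 FPKM and Dis3l2 with 10.4 ± 1.13 FPKM formed a middle group in which neighbours overlapped between libraries. Skiv2l with 6.32 ± 0.308 FPKM and Dcp1a with 6.08 ± 0.0833 FPKM were the lowest, and their libraries also overlapped. The other neighbours in this order did not overlap. In both knockdowns the order was kept at ranks 1 to 5, 9 and 10, and in the middle group Dis3l2 stood above Dis3l and Dcp2.

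Upon depletion of EXOSC3, the transcripts of Dcp1a and Dcp2 decreased, and no other member passed the test in either direction. Dcp1a was at 67.5% and Dcp2 at 72.6% of their scramble means. Of the 10 genes, 2 decreased and 0 increased by limma (adjusted p under 0.05), where 15.7% of the 11242 genes tested decreased and 16.7% increased. At an unadjusted p under 0.05 in limma the member counts were still 2 and 0, where 23.4% of all genes decreased and 22.0% increased. All siEXOSC3 libraries lay below all scramble libraries for 2 members, against 25.9% of all genes, and above them for 0 members, against 23.8% of all genes. The share of decreased members is thus near that of all genes. The median log2 fold change of the 10 was -0.10, with 4 values above 0 and 6 below, beside a median of -0.01 over all genes.

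Upon depletion of DDX1, 0 of the 10 genes passed the test in either direction by limma. Among the 11104 genes tested, 5.61% increased and 5.03% decreased. At an unadjusted p under 0.05 the member counts were 0 in both directions, where 15.1% of all genes increased and 15.0% decreased. All siDDX1 libraries lay below all scramble libraries for 2 members, Dis3l and Dcp1a, against 17.8% of all genes, and above them for 0 members, against 17.0% of all genes. The median log2 fold change of the 10 was 0.02, with 6 values above 0 and 4 below, beside a median of -0.001 over all genes. Both comparisons use the same scramble libraries and the tables were scaled separately, so the values are set side by side and the difference between the knockdowns was not tested.

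**Figure D1:**
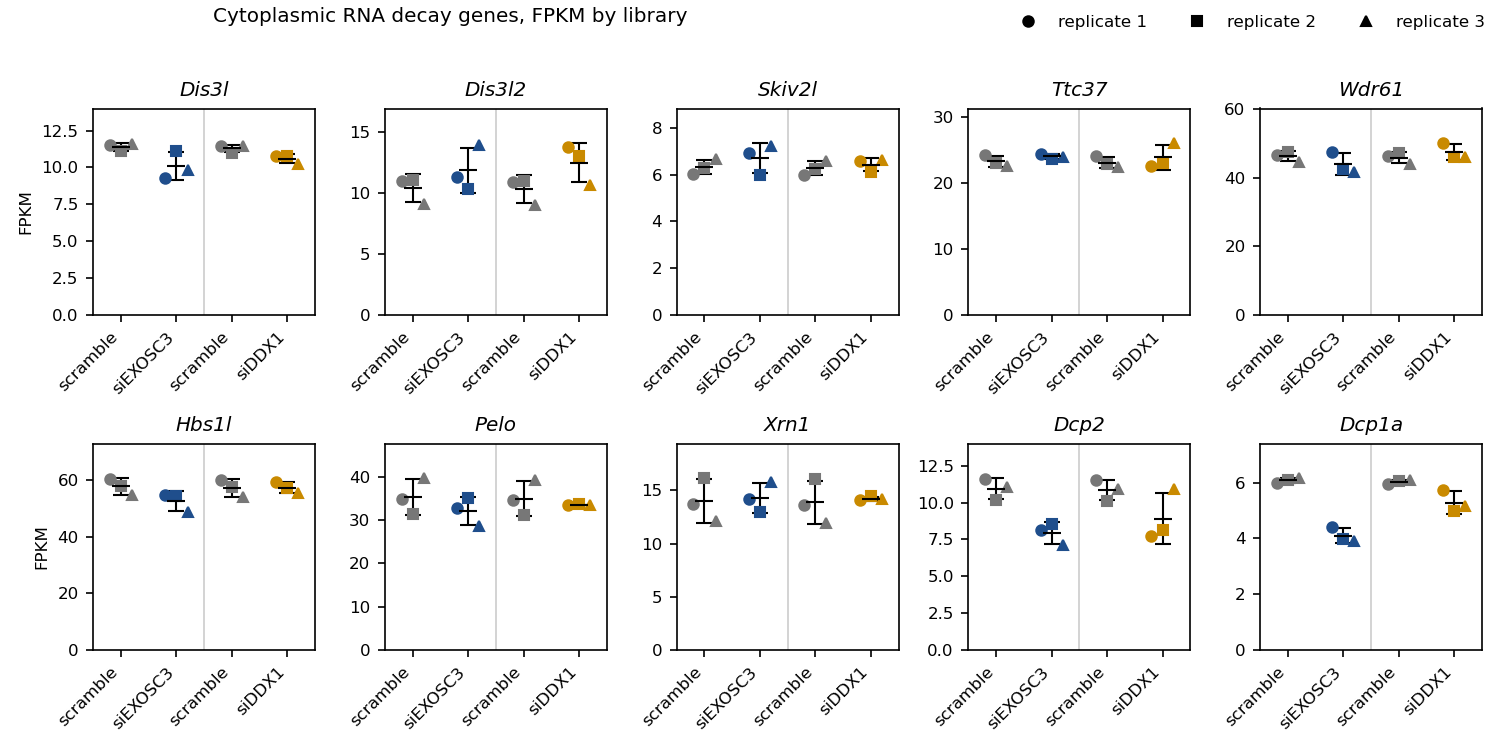
FPKM of the 10 cytoplasmic decay genes (vertical axes, linear and from 0) in each library, with scramble and siEXOSC3 from 1 table left of the grey line and scramble and siDDX1 from the other table right of it. Marker shapes give the replicate, and bars give the mean ± SD of 3 libraries. Dcp2 and Dcp1a are the 2 genes whose siEXOSC3 libraries all lie below the scramble libraries.

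**Figure D2:**
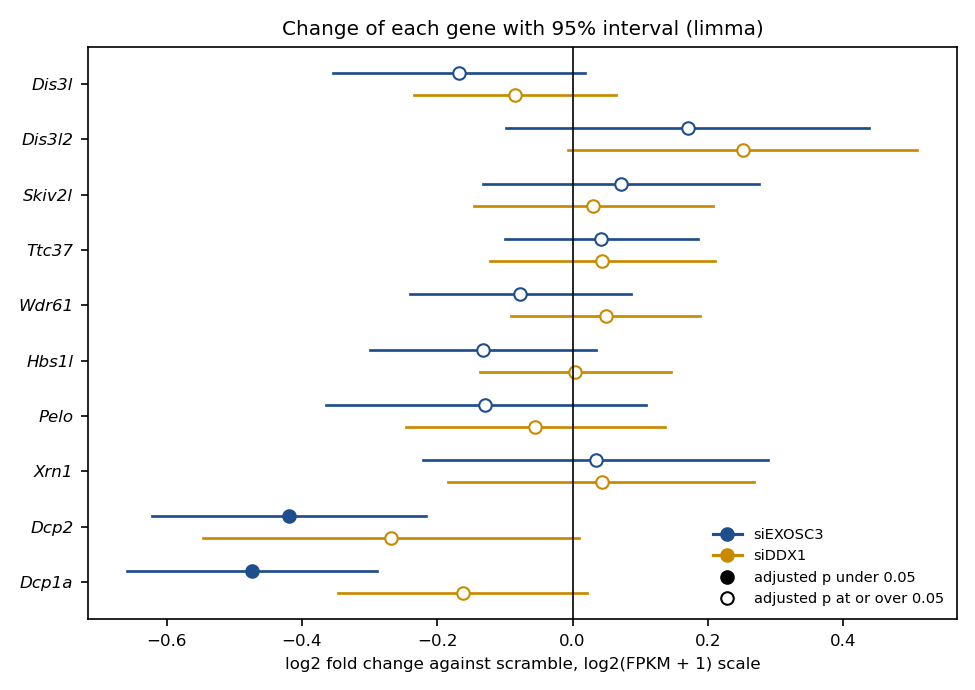
Log2 fold change of each gene against scramble on the log2(FPKM + 1) scale (horizontal axis), with its 95% interval from limma, for siEXOSC3 (blue) and siDDX1 (yellow). Filled points, Dcp2 and Dcp1a in siEXOSC3, have an adjusted p under 0.05, and all other intervals include 0.

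Decapping opens the path of decay from the 5′ end. Dcp1a encodes an activator of the decapping enzyme and is found on chromosome 14 of NCBIM37, the mm9 build, from 31292751 to 31340242, plus strand. It was at 5.99, 6.10 and 6.15 FPKM in scramble replicates 1, 2 and 3, and at 4.41, 3.97 and 3.92 FPKM in siEXOSC3 replicates 1, 2 and 3. Every siEXOSC3 library was lower than every scramble library, and the gap between the groups was larger than the range within either group. On the log2(FPKM + 1) scale Dcp1a fell by 0.47, with an SE of 0.0808 and a 95% interval from -0.66 to -0.29 (limma adjusted p = 0.00481). In siDDX1 the libraries were at 5.73, 4.97 and 5.15 FPKM, beside 5.94, 6.05 and 6.08 FPKM for scramble in that table. They too lay below all scramble libraries, with replicate 1 the closest at 95.2% of the scramble mean. The log2 fold change of Dcp1a in siDDX1 was -0.16, with a 95% interval from -0.35 to 0.02 (limma adjusted p = 0.213). Cacna1d, which Dcp1a overlaps on the opposite strand, shares no exonic base with it and was at 0.0055 FPKM in scramble.

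Dcp2 encodes the enzyme that hydrolyses the cap and lies on chromosome 18 of NCBIM37 from 44540154 to 44584623, plus strand. It was at 11.6, 10.2 and 11.1 FPKM in scramble and at 8.15, 8.56 and 7.14 FPKM in siEXOSC3. The groups did not overlap. Dcp2 fell by 0.42 on the log2(FPKM + 1) scale, with an SE of 0.0884 and a 95% interval from -0.62 to -0.22 (limma adjusted p = 0.0102). Without scramble replicate 1, its highest library, the log2 fold change was -0.38 and the call was lost (limma adjusted p = 0.0531, the highest of the fits without 1 library, which went down to 0.00418). The fit without scramble replicate 1 called 582 of all 11242 genes decreased, against 1767 with all libraries. In siDDX1 the libraries of Dcp2 were at 7.71, 8.16 and 10.9 FPKM, beside 11.5, 10.1 and 10.95 FPKM for scramble. Replicates 1 and 2 were at 71.0% and 75.2% of the scramble mean, while replicate 3 was at 100.5% and within the scramble range. Over all 3 libraries the log2 fold change of Dcp2 was -0.27 with a 95% interval from -0.55 to 0.01 (limma adjusted p = 0.177), and without siDDX1 replicate 3 it was -0.41 (limma adjusted p = 0.00496, against up to 0.413 without another library). The fit without siDDX1 replicate 3 called 1709 of all 11104 genes decreased, against 559 with all libraries. In replicate 3, Ddx1 was at 27.8% of its scramble mean, the highest of the 3 libraries, and the part of this in the level of Dcp2 was not tested.

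**Figure D3:**
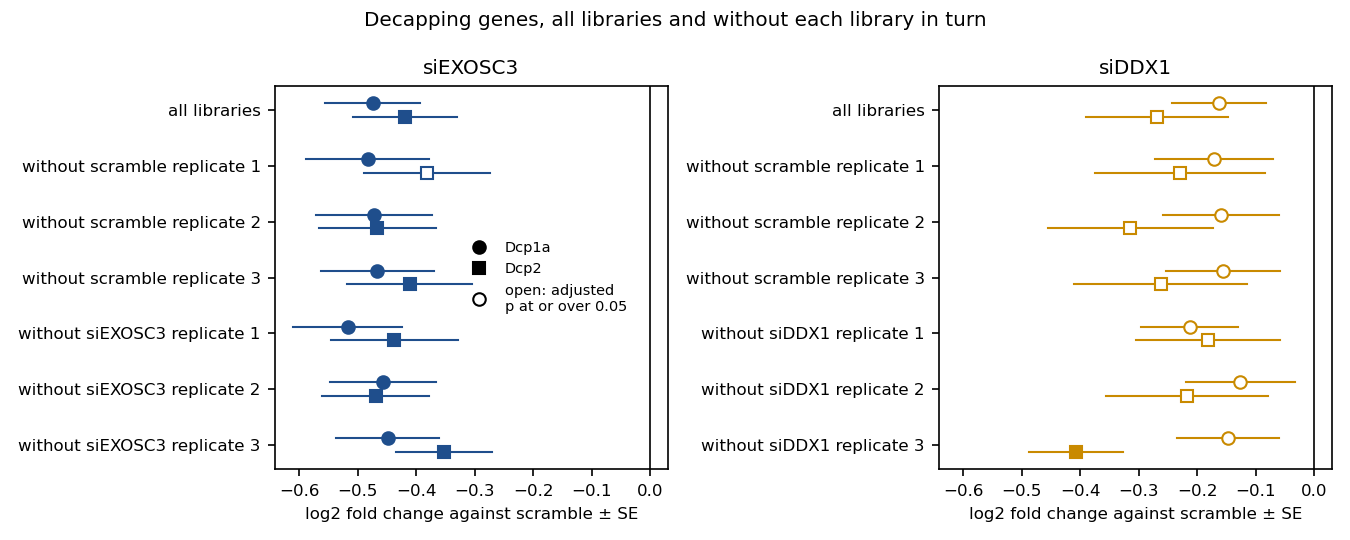
Log2 fold change ± SE of Dcp1a (circles) and Dcp2 (squares) against scramble, on the log2(FPKM + 1) scale, from all libraries and without each library in turn (rows), for siEXOSC3 (left) and siDDX1 (right). Filled points have an adjusted p under 0.05: Dcp1a is filled in every row of siEXOSC3, Dcp2 loses its call there without scramble replicate 1, and in siDDX1 Dcp2 alone is filled, without replicate 3.

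Among the 1767 genes that decreased in siEXOSC3, whose median log2 fold change was -0.37, 426 (24.1%) fell by more than Dcp1a and 646 (36.6%) by more than Dcp2. The ratio of Dcp2 to Dcp1a within a library was 1.80 ± 0.132 in scramble (SD, n = 3). In siEXOSC3 it was 1.94 ± 0.186, which overlapped with scramble (exact permutation test, two-sided, p = 0.4). In siDDX1 the ratio was 1.34, 1.64 and 2.12 in replicates 1, 2 and 3, a wider spread that reached to both sides of the scramble range (p = 0.7 in the exact permutation test). A design of 3 libraries against 3 gives no p under 0.1 in this test.

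Xrn1, on chromosome 9 from 95855179 to 95953446, plus strand, encodes the exonuclease that acts after decapping. Its libraries were at 13.75, 16.2 and 12.1 FPKM in scramble and at 14.2, 13.0 and 15.8 FPKM in siEXOSC3. The groups covered much the same range, and the log2 fold change was 0.03 with a 95% interval from -0.22 to 0.29 (limma adjusted p = 0.830). In siDDX1, Xrn1 was at 14.1, 14.45 and 14.2 FPKM, all within the scramble range of 11.99 to 16.04 FPKM in that table, and the log2 fold change was 0.04 with a 95% interval from -0.18 to 0.27 (limma adjusted p = 0.813). The ratio of Xrn1 to Dcp2 was 1.29 ± 0.262 in scramble and 1.82 ± 0.354 in siEXOSC3 (SD, n = 3), with overlap between the groups (exact permutation test, two-sided, p = 0.2). The exon sequence of Xrn1 shares 184 bases (3.35%) with Gm16794 on the opposite strand, and without strand information the reads of that stretch cannot be told apart.

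The exonucleases of the 3′ end did not pass the test in either knockdown. Dis3l, which encodes the catalytic subunit of the cytoplasmic exosome, is on chromosome 9 (minus strand), from 64154564 to 64189095. It was at 11.5, 11.1 and 11.6 FPKM in scramble and at 9.27, 11.1 and 9.82 FPKM in siEXOSC3. Replicates 1 and 3 of siEXOSC3 were below all scramble libraries, and replicate 2, at 97.4% of the scramble mean, overlapped with them. The log2 fold change was -0.17 with a 95% interval from -0.35 to 0.02 (limma adjusted p = 0.144), and without siEXOSC3 replicate 2 it was -0.24 and past the threshold (limma adjusted p = 0.0354, the lowest of the fits without 1 library, which went up to 0.386). The fit without siEXOSC3 replicate 2 called 2502 of all 11242 genes decreased, against 1767 with all libraries. In siDDX1, Dis3l was at 10.75, 10.8 and 10.25 FPKM, below the scramble libraries at 11.4, 11.0 and 11.5 FPKM. This difference was small, with a mean of 93.8% ± 2.70 of scramble (SD, n = 3) and a log2 fold change of -0.09 with a 95% interval from -0.24 to 0.06 (limma adjusted p = 0.411).

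Dis3l2 encodes the exonuclease that works without the exosome, and lies on chromosome 1 from 88600379 to 88946672, plus strand. Its scramble libraries were at 11.0, 11.1 and 9.10 FPKM and its siEXOSC3 libraries at 11.3, 10.4 and 13.9 FPKM. Replicate 3 of siEXOSC3 was at 133.7% of the scramble mean and replicate 2 at 99.6%, so the groups overlapped. The log2 fold change was 0.17 with a 95% interval from -0.10 to 0.44 (limma adjusted p = 0.292). In siDDX1 the libraries of Dis3l2 were at 13.7, 13.1 and 10.7 FPKM, beside 10.9, 11.0 and 8.99 FPKM for scramble. Replicates 1 and 2 were at 133.2% and 126.8% of the scramble mean, and replicate 3 at 103.4% overlapped with scramble. The log2 fold change was 0.25 with a 95% interval from -0.01 to 0.51 (limma adjusted p = 0.174), and without siDDX1 replicate 3 it was 0.35 (limma adjusted p = 0.0176, against up to 0.435 without another library). The fit without siDDX1 replicate 3 called 1818 of all 11104 genes increased, against 623 with all libraries.

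Within a library, the ratio of Dis3l to Dis3l2 sets the catalytic subunit of the cytoplasmic exosome against the exosome-independent enzyme. It was 1.05, 1.00 and 1.28 in scramble, and in siEXOSC3 it was 0.817, 1.07 and 0.706. Replicates 1 and 3 of siEXOSC3 lay below all scramble libraries, and replicate 2 overlapped (exact permutation test, two-sided, p = 0.3). In siDDX1 the ratio was 0.783, 0.826 and 0.961, lower in 3 of 3 libraries than in any scramble library (exact permutation test, two-sided, p = 0.1, the smallest it can give).

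The SKI complex extracts RNA and feeds it to the cytoplasmic exosome, and the transcripts of its 3 subunits did not pass the test in either knockdown. Their means lay between 94.8% and 106.1% of scramble. Skiv2l, the helicase, on chromosome 17 from 34976173 to 34987155, minus strand, was at 6.03, 6.29 and 6.65 FPKM in scramble and at 6.93, 5.99 and 7.22 FPKM in siEXOSC3. Replicates 1 and 3 of siEXOSC3 were above all scramble libraries and replicate 2 below them, and the log2 fold change was 0.07 with a 95% interval from -0.13 to 0.28 (limma adjusted p = 0.554). In siDDX1 the libraries of Skiv2l were at 6.56, 6.09 and 6.61 FPKM, and the log2 fold change was 0.03 with a 95% interval from -0.145 to 0.21 (limma adjusted p = 0.827). Skiv2l shares 6 exonic bases with its neighbour on the opposite strand, Dom3z.

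Ttc37, the scaffold of the SKI complex, on chromosome 13 from 76236182 to 76327764, plus strand, was at 24.3, 23.1 and 22.7 FPKM in scramble and at 24.5, 23.7 and 24.0 FPKM in siEXOSC3. The groups overlapped, and the 95% interval of its log2 fold change, from -0.10 to 0.19, was the narrowest of the 10 genes in this table. In siDDX1 it was at 22.6, 23.0 and 26.1 FPKM, with replicate 3 above all scramble libraries and the other replicates among them, and the log2 fold change was 0.04 with a 95% interval from -0.12 to 0.21 (limma adjusted p = 0.727).

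Wdr61 encodes a WD repeat protein of the SKI complex that is also part of the PAF1 complex in the nucleus, and is on chromosome 9 (minus strand), from 54562542 to 54595757. It was at 46.7, 47.4 and 44.6 FPKM in scramble and at 47.6, 42.5 and 41.6 FPKM in siEXOSC3. Replicate 1 of siEXOSC3 was above all scramble libraries and replicates 2 and 3 were below them, and the log2 fold change was -0.08 with a 95% interval from -0.24 to 0.09 (limma adjusted p = 0.426). In siDDX1, Wdr61 was at 50.1, 46.1 and 46.2 FPKM, with a log2 fold change of 0.05 and a 95% interval from -0.09 to 0.19 (limma adjusted p = 0.631). Of the exonic bases of Wdr61, 33.8% are shared with Dnaja4 on the opposite strand, which was at 0.176 FPKM in scramble. The ratio of Ttc37 to Skiv2l was 3.70 ± 0.309 in scramble, 3.61 ± 0.326 in siEXOSC3 and 3.73 ± 0.254 in siDDX1 (SD, n = 3), with overlap in both comparisons.

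The ribosome rescue factors did not pass the test either. Hbs1l, on chromosome 10 from 21015785 to 21088695, plus strand, encodes the GTPase that delivers PELO to stalled ribosomes, and an alternative transcript of the gene encodes a protein that links the SKI complex to the exosome. The FPKM is given per gene and does not separate these transcripts. Hbs1l was at 60.5, 58.1 and 54.7 FPKM in scramble and at 54.8, 54.5 and 48.6 FPKM in siEXOSC3. Replicates 2 and 3 of siEXOSC3 were below all scramble libraries and replicate 1, at 94.8% of the scramble mean, overlapped with scramble replicate 3. The log2 fold change was -0.13 with a 95% interval from -0.30 to 0.03 (limma adjusted p = 0.190). In siDDX1, Hbs1l was at 59.2, 57.35 and 55.6 FPKM, all within the scramble range, and the log2 fold change was 0.004 with a 95% interval from -0.14 to 0.15 (limma adjusted p = 0.970).

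Pelo encodes the factor that enters the empty A site of a stalled ribosome, and lies on chromosome 13 from 115878565 to 115880396, minus strand, within Itga1. It was at 34.8, 31.4 and 39.7 FPKM in scramble and at 32.7, 35.1 and 28.7 FPKM in siEXOSC3. The scramble libraries spread over most of the range of both groups, and the log2 fold change was -0.13 with a 95% interval from -0.365 to 0.11 (limma adjusted p = 0.361). In siDDX1 the libraries of Pelo were close together at 33.4, 33.6 and 33.4 FPKM, within the scramble range of 31.1 to 39.2 FPKM. The log2 fold change was -0.06 with a 95% interval from -0.25 to 0.14 (limma adjusted p = 0.701). Itga1 was at 8.05 FPKM in scramble and shares no exonic base with Pelo.

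Over the 9 libraries, the genes whose pattern was most like that of a member were taken by Pearson r of log2(FPKM + 1) minus the scramble mean of the same table. For Dcp1a, the member with the largest change in siEXOSC3, these were Stard3 (r = 0.988) and Ptpn21 (r = 0.987). For Dcp2, the member with the largest change in siDDX1, they were Atad2b (r = 0.995) and Tgfbr1 (r = 0.984). Such values were not rare: of 11054 genes, 188 had an r over 0.9 with Dcp1a and 286 with Dcp2. The points share libraries and the scramble baseline, and r is a description only. In siEXOSC3, Stard3 went from 6.19 to 4.58 FPKM, Ptpn21 from 8.11 to 5.75 FPKM, Atad2b from 9.92 to 6.77 FPKM and Tgfbr1 from 36.3 to 29.3 FPKM. In siDDX1, Stard3 went from 6.13 to 5.60 FPKM, Ptpn21 from 8.04 to 7.31 FPKM, Atad2b from 9.83 to 7.76 FPKM and Tgfbr1 from 35.9 to 31.8 FPKM. These genes were chosen for their likeness over the same libraries, so their levels are a description without a test.

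The other genes of cytoplasmic mRNA decay were described by 5 lists with 84 genes in all. In siEXOSC3, 80 of them were tested, of which 8 increased and 20 decreased, beside 16.7% and 15.7% of all genes. In siDDX1, 79 were tested, of which 7 increased and 6 decreased, beside 5.61% and 5.03% of all genes. The counts moved with single libraries. In siEXOSC3, leaving out any scramble library or siEXOSC3 replicate 1 left 6 or 7 decreased and 3 or 4 increased genes. Of all 11242 genes, 582 to 931 decreased and 1025 to 1317 increased in those fits. Without siEXOSC3 replicate 2 the list counts were 30 decreased and 12 increased, beside 2502 and 2384 of all genes. In siDDX1, leaving out any library but siDDX1 replicate 3 left 0 to 2 decreased and 3 to 5 increased genes. Of all 11104 genes, 61 to 236 decreased and 96 to 285 increased in those fits. Without siDDX1 replicate 3 the list counts were 15 decreased and 11 increased, beside 1709 and 1818 of all genes.

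Deadenylation, the shortening of the poly(A) tail that precedes decapping, was covered by 18 genes, all of them tested. Of these, 2 increased and 8 decreased in siEXOSC3, beside 16.7% and 15.7% of all genes, with a median log2 fold change of -0.11. The counts were 1 and 5 when any scramble library or siEXOSC3 replicate 1 was left out, beside 1025 to 1317 and 582 to 931 of all 11242 genes. Btg2, which encodes an antiproliferative protein that recruits the CCR4-NOT deadenylase, was at 6.20, 6.70 and 6.88 FPKM in scramble and at 16.5, 12.9 and 18.0 FPKM in siEXOSC3. It rose by 1.13 on the log2 scale (limma adjusted p = 8.93e-04), and the groups did not overlap. Tob2, of the same protein family, fell from 21.5 ± 0.131 to 12.25 ± 0.677 FPKM (SD, n = 3; log2 fold change -0.77, limma adjusted p = 5.22e-04). Rqcd1, the CCR4-NOT subunit also known as CNOT9, fell from 37.6 ± 0.555 to 27.5 ± 2.75 FPKM (log2 fold change -0.445, limma adjusted p = 0.00601). In siDDX1, 2 genes of the list increased and 3 decreased, beside 5.61% and 5.03% of all genes, with a median of -0.06. The decreased count was 0 without scramble replicate 1 or 3, where 61 and 67 of all 11104 genes decreased. Btg2 was at 11.5, 13.1 and 10.5 FPKM in siDDX1 and rose by 0.75 on the log2 scale (limma adjusted p = 0.00632). Tob1 fell from 28.95 to 21.6 FPKM (limma adjusted p = 0.0101), and Btg1 rose from 10.4 to 12.7 FPKM (limma adjusted p = 0.0466). The call of Btg1 was lost in 5 of 6 and that of Tob1 in 2 of 6 fits without 1 library, and the call of Btg2 was kept in all 6.

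Of the other decapping and P body genes, 16 of 17 were tested, and Nudt16 was below the filter. In siEXOSC3, 0 increased and 3 decreased, beside 16.7% and 15.7% of all genes, with a median log2 fold change of -0.16. At an unadjusted p under 0.05 the counts were 0 and 8, beside 22.0% and 23.4% of all genes. Lsm2 and Lsm3 encode subunits of the LSM ring, which binds shortened 3′ ends in the cytoplasm and also has a nuclear form. Lsm2 fell from 72.0 ± 5.15 to 50.6 ± 11.1 FPKM (limma adjusted p = 0.0271) and Lsm3 from 179.9 ± 7.81 to 137.0 ± 27.5 FPKM (limma adjusted p = 0.0431; SD, n = 3). Eif4enif1, whose product binds eIF4E in P bodies, fell from 42.0 ± 0.751 to 34.0 ± 2.66 FPKM (limma adjusted p = 0.0154). The siEXOSC3 libraries of Lsm2 and Lsm3 had a wider spread than the scramble libraries, and all 3 calls were lost when any scramble library or siEXOSC3 replicate 1 was left out. In those fits 582 to 931 of all 11242 genes decreased. Without siEXOSC3 replicate 2 the decreased count was 8, and 2502 of all 11242 genes decreased. In siDDX1, 0 of the 16 passed the test by limma in either direction, with a median of 0.065. At an unadjusted p under 0.05, 4 increased and 1 decreased, beside 15.1% and 15.0% of all genes. Without siDDX1 replicate 3, 2 increased and 3 decreased at the adjusted threshold, beside 1818 and 1709 of all 11104 genes.

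For ribosome rescue and quality control, 15 of 16 genes were tested, and Gspt2 was listed at 0 in every library. In siEXOSC3, 3 increased and 1 decreased, beside 16.7% and 15.7% of all genes, with a median of -0.09. The counts were 1 and 0 without scramble replicate 1 or 3 or siEXOSC3 replicate 1, beside 1025 to 1182 and 582 to 868 of all 11242 genes. They were 4 and 6 without siEXOSC3 replicate 2, beside 2384 and 2502 of all genes. In siDDX1, 3 increased and 1 decreased, beside 5.61% and 5.03% of all genes, with a median of 0.005. The counts there were 1 and 0 without scramble replicate 1 or 3 or siDDX1 replicate 2, beside 96 to 170 and 61 to 162 of all 11104 genes. Without siDDX1 replicate 3 they were 4 and 3, beside 1818 and 1709 of all genes. Gtpbp2, a GTPase that acts with PELO at stalled ribosomes, rose from 34.9 ± 2.30 to 53.9 ± 11.4 FPKM in siEXOSC3 (limma adjusted p = 0.0148) and from 34.5 ± 2.32 to 48.5 ± 5.48 FPKM in siDDX1 (limma adjusted p = 0.0194; SD, n = 3). Ascc1, a component of the ASCC complex, was at 28.7, 29.3 and 28.8 FPKM in scramble and at 40.7, 39.0 and 44.8 FPKM in siEXOSC3, and the log2 fold change was 0.50 (limma adjusted p = 0.00244). In siDDX1 it was at 42.7, 40.6 and 37.3 FPKM and rose by 0.47 (limma adjusted p = 0.00751). N4bp2, which is related to an endonuclease of no-go decay, fell from 9.90 to 7.69 FPKM in siEXOSC3 (limma adjusted p = 0.0365) and from 9.81 to 6.81 FPKM in siDDX1 (limma adjusted p = 0.0284). The calls of Gtpbp2 and N4bp2 were lost when single libraries were left out, and those of Ascc1 were kept.

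Uridylation marks RNA for DIS3L2, and 12 genes of uridylation and other cytoplasmic nucleases were tested in siEXOSC3, of which 1 increased and 1 decreased, beside 16.7% and 15.7% of all genes, with a median of -0.035. Zcchc11, the terminal uridylyltransferase also known as TUT4, rose from 40.5 ± 1.07 to 48.7 ± 4.64 FPKM (limma adjusted p = 0.0374), and Lin28b, whose family binds let-7 precursors, fell from 13.15 ± 0.369 to 10.0 ± 1.59 FPKM (limma adjusted p = 0.0286; SD, n = 3). Both calls were lost when any scramble library or siEXOSC3 replicate 1 was left out, and that of Zcchc11 also without siEXOSC3 replicate 3. In siDDX1, 11 were tested, of which 2 increased and 2 decreased, beside 5.61% and 5.03% of all genes, with a median of 0.04. Without scramble replicate 1 or siDDX1 replicate 2 the counts were 1 and 0. Of all 11104 genes, 103 increased and 61 decreased without scramble replicate 1, and 170 and 162 without siDDX1 replicate 2. Lin28a, which recruits TUT4 to let-7 precursors, was at 31.9, 31.7 and 30.8 FPKM in scramble and at 46.7, 45.02 and 41.1 FPKM in siDDX1 (log2 fold change 0.48, limma adjusted p = 0.00730). Slbp, the histone mRNA stem-loop binding protein, fell from 41.6 ± 1.79 to 32.3 ± 0.853 FPKM (limma adjusted p = 0.0128), and Lin28b fell from 13.0 ± 0.390 to 10.1 ± 1.24 FPKM (limma adjusted p = 0.0498; SD, n = 3). The call of Lin28b was lost in 5 of 6 and that of Slbp in 2 of 6 fits without 1 library, and the call of Lin28a was kept in all 6.

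Of 21 mRNA decay adaptors, which bring decay enzymes to chosen transcripts, 19 were tested, and Zfp36l1 and Ago4 were below the filter. In siEXOSC3, 2 increased and 7 decreased, beside 16.7% and 15.7% of all genes, with a median of -0.10. Nanos1, a translational repressor, rose from 3.08 ± 0.174 to 5.75 ± 0.238 FPKM (log2 fold change 0.73, limma adjusted p = 0.00127). Ythdf1 and Ythdf2, readers of N6-methyladenosine, fell from 32.2 ± 0.606 to 21.7 ± 2.47 FPKM (limma adjusted p = 0.00340) and from 29.1 ± 1.61 to 22.6 ± 3.19 FPKM (limma adjusted p = 0.0287; SD, n = 3). The call of Ythdf2 was lost in 4 of 6 fits without 1 library and that of Ythdf1 was kept in all 6. The decreased count of 7 was 1 without scramble replicate 1 and 2 without scramble replicate 2, scramble replicate 3 or siEXOSC3 replicate 1. Of all 11242 genes, 582 decreased without scramble replicate 1 and 806 to 931 in the other fits named. In siDDX1, 0 of the 19 passed the test by limma, with a median of -0.06. At an unadjusted p under 0.05, 1 increased and 3 decreased, beside 15.1% and 15.0% of all genes. Without siDDX1 replicate 3, 3 decreased at the adjusted threshold, and 1709 of all genes did.

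**Figure D4:**
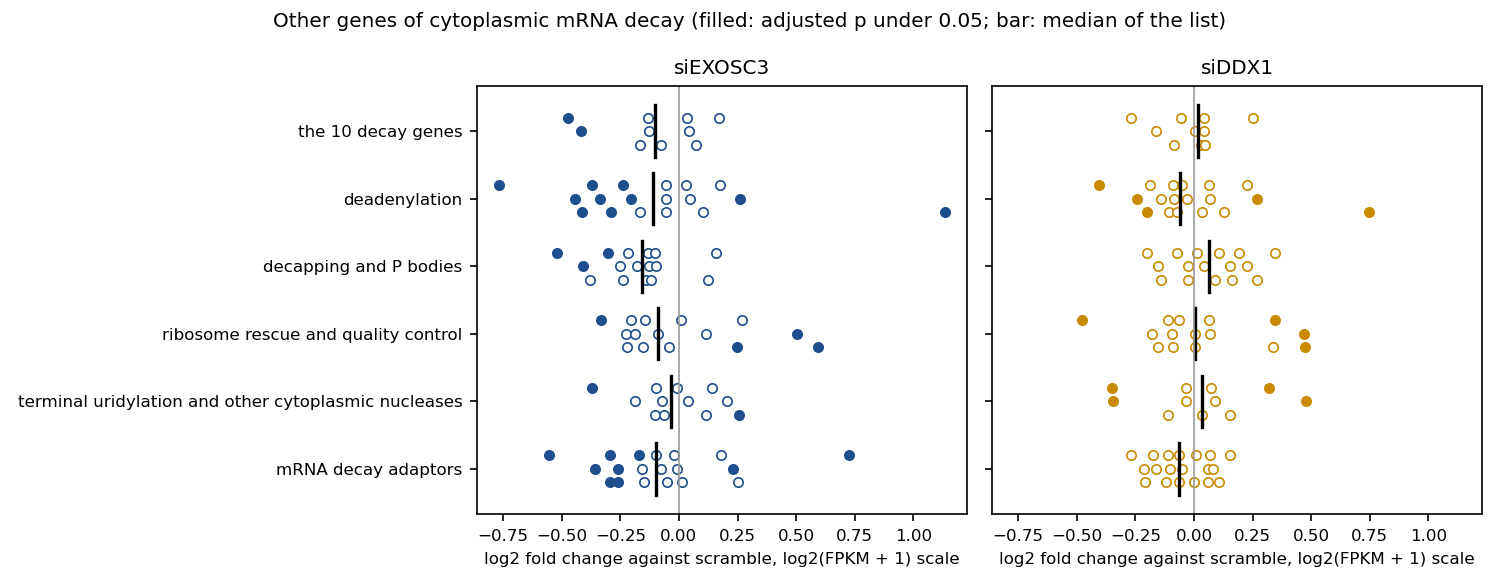
Log2 fold change against scramble on the log2(FPKM + 1) scale (horizontal axis) of the 10 decay genes and of the genes of 5 lists of cytoplasmic mRNA decay (rows), for siEXOSC3 (left) and siDDX1 (right). Each point is a gene, filled where its adjusted p is under 0.05, and the vertical bar is the median of the list. Across the 5 lists, 28 points are filled in siEXOSC3 and 13 in siDDX1.

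The nuclear counterparts of 3 of the enzymes were set beside them. Dis3, which encodes the catalytic subunit of the nuclear exosome, was at 35.4 FPKM in scramble and 30.5 FPKM in siEXOSC3, with a log2 fold change of -0.22 (limma adjusted p = 0.0915) beside -0.17 for Dis3l. Without siEXOSC3 replicate 2 the log2 fold change of Dis3 was -0.295 and past the threshold (limma adjusted p = 0.0160, against up to 0.213 without another library). The fit without siEXOSC3 replicate 2 called 2502 of all 11242 genes decreased, against 1767 with all libraries. Skiv2l2, the helicase MTR4 of the nuclear exosome, fell from 88.9 ± 2.59 to 76.6 ± 3.14 FPKM (SD, n = 3; log2 fold change -0.21, limma adjusted p = 0.0314) beside 0.07 for Skiv2l. This call was lost when any scramble library or siEXOSC3 replicate 1 was left out. Xrn2, the nuclear 5′ to 3′ exonuclease, was at 68.9 and 66.6 FPKM, with a log2 fold change of -0.05 (limma adjusted p = 0.593) beside 0.03 for Xrn1. In siDDX1, the log2 fold changes of Dis3, Xrn2 and Skiv2l2 were 0.05, 0.03 and -0.07, and none passed the test (limma adjusted p = 0.576, 0.827 and 0.448). The differences between a cytoplasmic enzyme and its nuclear counterpart were not tested.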

How the data were processed

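RNA-seq of ribosomal RNA-depleted, nondirectional libraries was carried out on N2A cells with 3 libraries each of scramble, siEXOSC3 and siDDX1, labelled as replicates. The authors aligned reads to mm9 with TopHat2 version 2.1.0 and ran Cuffdiff version 2.2.1 for each knockdown against scramble, per the submitters' processing notes and the methods. They deposited FPKM per gene and library in 2 tables, each of which pairs a knockdown with the 3 scramble libraries. The annotation used is not given in the sources used here. The scramble values differ between the tables by a nearly constant factor (median 1.01 in each library), so every test stayed within a table. FPKM are not counts, and no count model, count interval or floor was used.

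Genes whose mean reached 1 FPKM were compared as log2(FPKM + 1) by limma (version 3.58.1, R version 4.3.3; intensity trend, no covariates, two-sided, Benjamini-Hochberg over all genes tested, threshold 0.05). Fold changes on this scale understate changes of low genes. Within-library ratios were compared by exact permutation tests. The fit was tested on simulated data.

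The members, lists and tests were chosen with earlier results of these data known. Named were all members, both siRNA targets, 3 nuclear counterparts, per list and comparison at most the 3 called genes with the largest log2 fold change, and the 2 genes most like the member that changed most. Dnaja4, Itga1, Cacna1d, Gm16794 and Dom3z are named for their overlap with members. Of the neuronal markers, 1 is not reported here. Positions are from GENCODE vM1 on NCBIM37, the sequence of mm9. Alternatives were a pseudocount of 0.1, no filter, a mean of at least 5 FPKM, quantile normalization, median centring, the replicate number as a block, no intensity trend, an adjusted p under 0.01, leaving out each library, and, chosen after seeing the data, subtraction, over coding genes, of a loess fit (span 0.3) to length and GC content. Figures were drawn with matplotlib version 3.10.9.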

Additional observations from a re-analysis of the deposited data

How the results depend on the processing

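Dcp1a kept its call in siEXOSC3 in all alternatives, with limma adjusted p-values from 0.00372 to 0.0279. At an adjusted p under 0.01, 1 member decreased in siEXOSC3, since Dcp2 was at 0.0102, and leaving out each library gave 1 to 3. In siDDX1, 1 member, Dis3l2, increased with the replicate number as a block (limma adjusted p = 0.0489), and leaving out each library gave 0 to 1 increased and 0 to 1 decreased.

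Over all genes, 869 increased and 480 decreased in siEXOSC3 at an adjusted p under 0.01, 1059 decreased with the replicate block, and leaving out each library gave 1025 to 2384 increased and 582 to 2502 decreased. In siDDX1, 100 increased and 83 decreased at an adjusted p under 0.01, 387 and 330 without the filter, and 1085 increased with the replicate block. Leaving out each library there gave 96 to 1818 increased and 61 to 1709 decreased. Deviations of same-numbered libraries correlated at 0.04, -0.31 and -0.13 in siEXOSC3 and -0.01, 0.38 and 0.37 in siDDX1. In siDDX1, scramble replicate 2 with knockdown replicate 3 was at -0.37, and scramble replicate 3 with knockdown replicate 2 at -0.38. With 3 libraries per group these values cannot decide whether the replicate numbers pair the samples.

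Values near 0 that were not called changed sign. In siEXOSC3 these log2 fold changes were -0.002 for Skiv2l and 0.001 for Xrn2 with the GC and length trend removed, and -0.006 for Ddx1 after quantile normalization. In siDDX1 they were -0.007 for Skiv2l with the trend removed, -0.035 for Hbs1l and -0.011 for Xrn2 after quantile normalization, and 0.002 for Lsm3 after centring. Leaving out each library gave -0.058 to 0.135 for Xrn1 and -0.045 to 0.040 for Ddx1 in siEXOSC3. In siDDX1 it gave -0.018 to 0.081 for Ttc37, -0.036 to 0.039 for Hbs1l, -0.133 to 0.029 for Pelo, -0.052 to 0.144 for Xrn1, -0.055 to 0.009 for Lsm3, -0.060 to 0.207 for Nanos1 and -0.022 to 0.050 for Xrn2. Of the named genes called, 10 of 23 in siEXOSC3 and 4 of 13 in siDDX1 kept their calls in every alternative in which they were tested (Nanos1 was not tested at a mean of at least 5 FPKM). The 10 include the siRNA target Exosc3, and Ptpn21 and Atad2b, which were chosen for likeness to a member. The 4 include the siRNA target Ddx1. The causes were not tested.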

Other observations

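The neighbour of Skiv2l on the opposite strand, Dom3z, listed as Dxo in the tables, was looked at after its values had been seen. It encodes an enzyme that removes incomplete caps and degrades the RNA from the 5′ end. Its level went from 7.59 ± 0.547 to 5.50 ± 0.468 FPKM in siEXOSC3 (SD, n = 3; log2 fold change -0.40, limma adjusted p = 0.0124), with no overlap between the groups. In siDDX1 it was at 6.501 ± 0.131 FPKM, also below all scramble libraries, with a log2 fold change of -0.18 (limma adjusted p = 0.158).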
